A study of Mus musculus with 31 samples.

Results

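A set of 10 genes that mark the endothelial cells of brain vessels was followed here through mRNA and ribosome footprints of mouse cortex: Cldn5, Flt1, Pecam1, Tek, Kdr, Cdh5, Slco1a4, Ly6c1, Abcb1a and Itm2a. They were taken by name, with earlier results of these data known, as 10 of the 20436 gene symbols in the count tables. All 10 passed the filter on low counts in both assays. The study sequenced polyA mRNA and ribosome footprints (the RNA pieces that translating ribosomes protect) from cortices of mice between postnatal days 29 and 34. The genotypes were wild type (WT), deficient in Fmr1 (FXS, a model of fragile X syndrome), deficient in Rps6kb1, which encodes the kinase S6K1 (labelled S6K1), and deficient in both genes (DKO). The mRNA libraries numbered 4 for each genotype, and footprint libraries numbered 4 for WT, 5 for FXS, 3 for S6K1 and 3 for DKO. The labels give the genotypes without the alleles, strain or sex, and name no treatment and no cell sort, so every library is whole cortex. They do not say whether libraries of a genotype came from separate mice, so p-values measure the spread between these libraries, which may be technical in part.

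Brain endothelial cells line the vessels and form the blood-brain barrier. Tight junctions seal the gaps between neighbouring cells, efflux pumps and carriers in their membranes select what crosses, and receptors for vascular growth factors keep the vessels in place. The members fall into junction and adhesion genes (Cldn5, the main claudin of brain endothelial tight junctions; Cdh5, VE-cadherin of the adherens junction; Pecam1, an adhesion molecule at endothelial contacts), growth factor receptors (Flt1 and Kdr, the VEGF receptors 1 and 2; Tek, the angiopoietin receptor Tie2), transporters (Slco1a4, an organic anion carrier; Abcb1a, the P-glycoprotein efflux pump) and the surface and membrane proteins Ly6c1 and Itm2a. In whole cortex these cells are a small part of the tissue, and fewer endothelial cells cannot be told apart from less RNA in each cell.

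In RefSeq's annotation of GRCm38.p6, the assembly behind mm10, the junction genes span chr16:18776847-18778262 (Cldn5), chr8:104101613-104144504 (Cdh5) and chr11:106654213-106715281 (Pecam1). The receptors span chr5:147561604-147726438 (Flt1), chr5:75932827-75979072 (Kdr) and chr4:94739086-94874976 (Tek). The transporters span chr6:141805438-141856284 (Slco1a4) and chr5:8567091-8748575 (Abcb1a), and the last pair chr15:75044018-75048920 (Ly6c1) and chrX:107397195-107403360 (Itm2a). RefSeq's promoter table for that assembly held 8 of the 10 genes, with an entry for neither Pecam1 nor Cdh5. The sequences before the start of 3 members are shown because the results turn on them: Slco1a4, the member that passed the test, Cldn5, the junction gene with the largest footprint difference in DKO, and Abcb1a, the other transporter. They lie at chr6:141856285-141856470 (minus strand; the part of the table's window outside the annotated gene), chr16:18776597-18776846 (plus strand) and chr5:8566841-8567090 (plus strand). Each is written 5′ to 3′ in lower case, with GGAA or its reverse complement TTCC, the core bound by ETS factors that many endothelial genes use, in capitals.
Slco1a4: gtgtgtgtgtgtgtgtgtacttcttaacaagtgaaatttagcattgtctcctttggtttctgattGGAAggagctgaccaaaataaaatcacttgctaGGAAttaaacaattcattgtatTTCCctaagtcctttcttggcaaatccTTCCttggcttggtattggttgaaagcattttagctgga
Cldn5: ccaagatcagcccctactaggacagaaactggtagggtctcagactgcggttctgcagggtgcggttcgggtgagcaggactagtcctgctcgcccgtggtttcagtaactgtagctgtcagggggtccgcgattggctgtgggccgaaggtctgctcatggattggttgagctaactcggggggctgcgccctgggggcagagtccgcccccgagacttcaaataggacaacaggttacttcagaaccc
Abcb1a: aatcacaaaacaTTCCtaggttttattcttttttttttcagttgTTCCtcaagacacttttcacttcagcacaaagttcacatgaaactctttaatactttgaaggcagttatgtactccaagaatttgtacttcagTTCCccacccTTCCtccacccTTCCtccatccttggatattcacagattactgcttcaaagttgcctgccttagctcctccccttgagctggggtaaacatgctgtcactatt
The printed runs held 4 cores for Slco1a4, 5 for Abcb1a and 0 for Cldn5. Over the 250 bases before each start in the table, 8 of the 9 member entries (Ly6c1 has 2) held the core on either strand, and 93.4% of all 32851 promoters did. The forkhead core TGTTTA, read on both strands, was in 3 of the 9 entries, those of Slco1a4, Abcb1a and Ly6c1, and in 12% of all promoters. The SOX core ATTGT was in 2 of the 9 entries and 27.7% of all promoters. The TATA box TATAAA was in 2 of the 9 entries and 12.4% of all promoters. The members' share with the ETS core was near that of all promoters, and a match is a description of the sequence, not a bound site.

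Library totals ran from 12134624 to 17267368 counts for mRNA and from 16633416 to 34853751 for footprints. The labels' genes followed their labels: Fmr1 footprints were 7.03 to 12.8 CPM (read counts scaled to the library's size) in FXS and DKO libraries against 104 to 159 CPM in WT and S6K1 libraries, and Rps6kb1 footprints were 7.62 to 12.8 CPM in S6K1 and DKO libraries against 26.1 to 36.3 CPM in the others. In mRNA, Fmr1 was at 10.6 to 22.1 CPM against 55.6 to 82.6 CPM, while Rps6kb1 overlapped, at 28.2 to 43.7 CPM against 39.5 to 55.5 CPM. Each mRNA batch (numbered 5 to 8 in the labels) held every genotype once. Footprint batches 1 to 4 were uneven: the first held S6K1 and DKO libraries without WT or FXS, the second lacked DKO and the fourth lacked S6K1. mRNA batch 5 stood apart for the members, as described below, and the mRNA differences of the S6K1 comparison are given with and without it.

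The mRNA of all 10 members had a lower fitted level in the S6K1 and DKO libraries than in the WT and FXS libraries, and 1 of them, Slco1a4, passed the test. The differences, mean of S6K1 and DKO minus mean of WT and FXS in a model with batch, ran from -0.60 to -0.23 on the log2 scale, with a median of -0.41, while the median over all genes was 0.01. By edgeR's quasi-likelihood test with Benjamini-Hochberg adjustment over all 14215 genes, the share called at an adjusted p under 0.05 was 0.239%, or 26 genes lower and 8 higher. At an unadjusted p under 0.05, 8 of the 10 members were lower and none higher, against 6.5% of all genes being lower at that level. The exceptions were Cldn5 and Kdr. The members and this comparison were chosen with earlier results of these data known, so these counts are a description and not an independent test. With mRNA batch 5 left out, all 10 differences were still negative with a median of -0.39, but 0 members were called by edgeR and 7 had an unadjusted p under 0.05. The differences were then -0.26 for Cldn5, -0.27 for Cdh5, -0.50 for Pecam1, -0.37 for Flt1, -0.05 for Kdr, -0.43 for Tek, -0.53 for Slco1a4, -0.48 for Abcb1a, -0.53 for Ly6c1 and -0.35 for Itm2a.

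**Figure D1:**
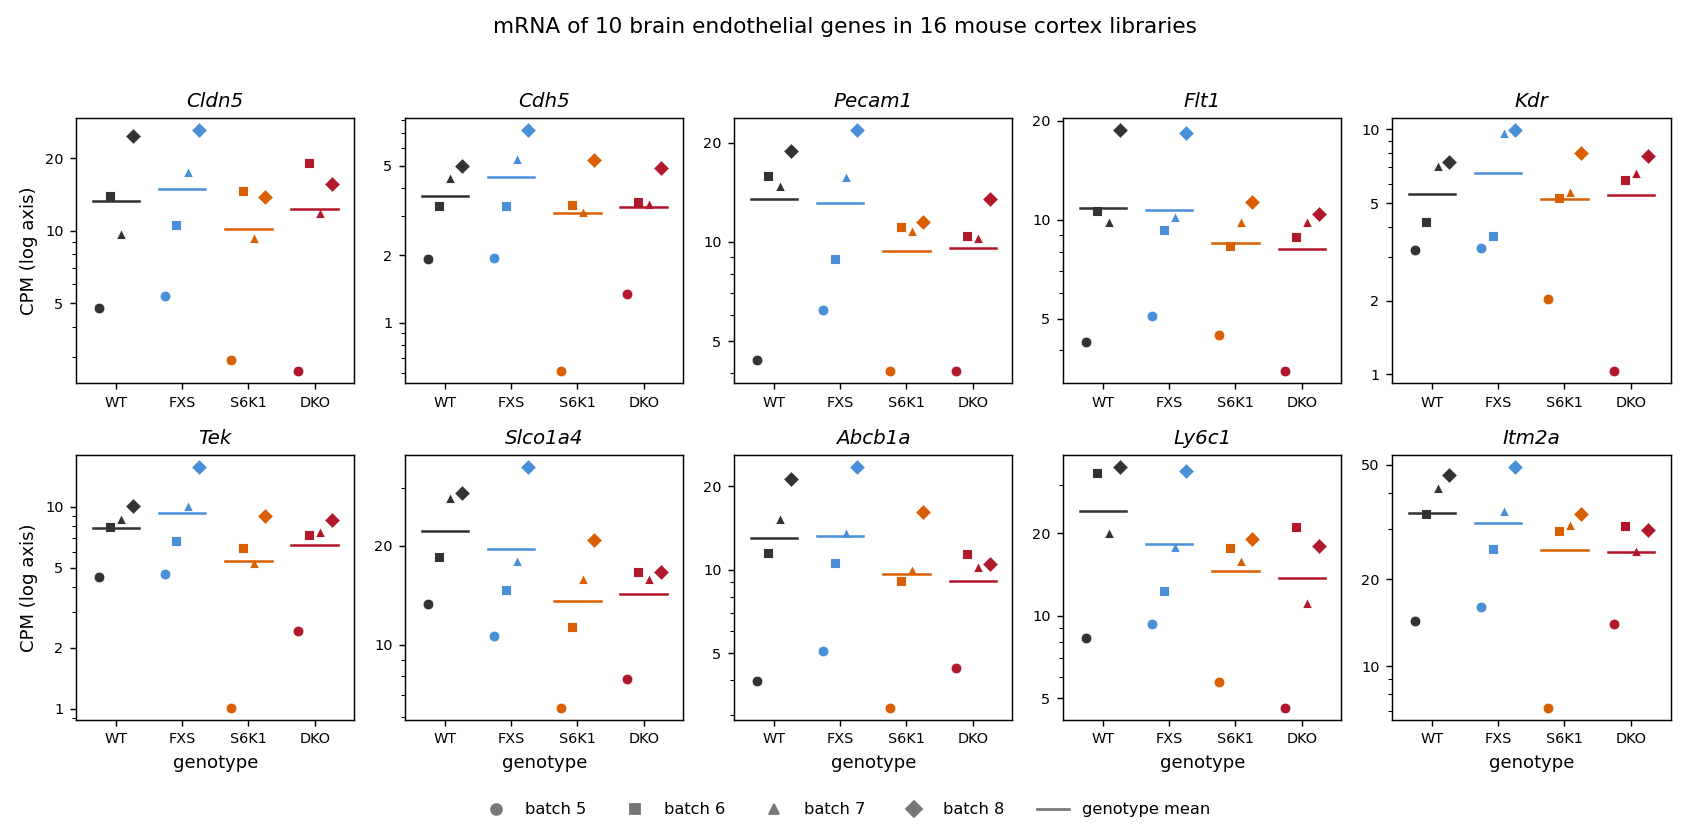
mRNA of the 10 members in the 16 libraries, in CPM on a log axis, by genotype; marker shapes give the batch and bars the mean of the 4 libraries of a genotype. The batch 5 libraries (circles) lie below the other libraries in nearly every panel, and within batches 5, 7 and 8 most S6K1 and DKO points lie below the WT and FXS points.

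Of the junction and adhesion genes, Pecam1 had the difference with the smallest error. In WT its mRNA was 4.38, 15.9, 14.8 and 18.9 CPM in batches 5 to 8, and in FXS it was 6.21, 8.90, 15.7 and 21.8 CPM. In S6K1 it was 4.06, 11.1, 10.8 and 11.5 CPM and in DKO 4.07, 10.4, 10.3 and 13.5 CPM. Within every batch but 6, where the FXS library was the lowest, both libraries lacking S6K1 were below both that had it; across batches the groups overlapped. The fitted difference was -0.47 ± 0.113 (approximate SE, 8 libraries against 8), or 1.39-fold lower, with an adjusted p of 0.0897 by edgeR. Cldn5 ranged from 4.79 to 26.2 CPM with S6K1 present (median 12.3) and from 2.61 to 19.1 CPM without it (median 12.9), so the groups overlapped nearly throughout, and its difference of -0.36 ± 0.186 had an adjusted p of 0.423. Cdh5, the member with the lowest mRNA level in CPM, was at 1.92 to 7.21 CPM against 0.609 to 5.34 CPM, with a difference of -0.39 ± 0.158 and an adjusted p of 0.282.

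Among the growth factor receptors, Tek had the largest fitted difference of the 10 members. Its mRNA in batches 5 to 8 was 4.52, 7.97, 8.74 and 10.1 CPM in WT and 4.66, 6.75, 10.1 and 15.8 CPM in FXS. It was 1.01, 6.23, 5.30 and 9.01 CPM in S6K1 and 2.43, 7.22, 7.53 and 8.62 CPM in DKO. The S6K1 library of batch 5, with 15 counts, was the lowest of the 16, and in batches 5, 7 and 8 both libraries lacking S6K1 were below both that had it. The difference was -0.60 ± 0.151, 1.52-fold lower, with an adjusted p of 0.0939 by edgeR. Flt1, which binds VEGF-A and VEGF-B, had a median of 10 CPM with S6K1 and 9.36 CPM without it, and a difference of -0.33 ± 0.106 (adjusted p = 0.179). Kdr, through which VEGF-A acts on endothelium, had the smallest difference, -0.23 ± 0.172 (adjusted p = 0.601).

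Slco1a4, a carrier of organic anions in the barrier membrane, fell in the libraries lacking S6K1. Its mRNA in batches 5 to 8 was 13.3, 18.5, 28 and 28.9 CPM in WT and 10.6, 14.7, 18 and 34.8 CPM in FXS. In S6K1 it was 6.42, 11.3, 15.9 and 20.8 CPM, and in DKO 7.84, 16.7, 15.9 and 16.6 CPM. Each S6K1 library was below the WT and the FXS library of its batch, and each DKO library was too, except in batch 6, where DKO stood above FXS. The fitted difference was -0.57 ± 0.108, 1.48-fold lower, with an adjusted p of 0.0305 by edgeR (3.65e-05 unadjusted). The call had little room: it was lost with an adjusted p of 0.185 without batch 5, and with adjusted p-values from 0.0508 to 0.092 when WT replicate 1, 2 or 3, FXS replicate 1 or 4, S6K1 replicate 1, 2 or 3, or DKO replicate 1 or 3 was left out, while the difference stayed between -0.66 and -0.47. Abcb1a, the drug efflux pump, was at 3.97 to 23.5 CPM with S6K1 and 3.18 to 16.2 CPM without it, with a difference of -0.43 ± 0.115 and an adjusted p of 0.117. Reads of Abcb1a can be shared with Abcb1b (1247 mRNA counts over all libraries, against 2542 for Abcb1a), while the near copies of Slco1a4, Slco1a5 and Slco1a6, had 26 and 3 counts against 3934.

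Ly6c1, a GPI-anchored surface protein of the Ly6 family, was at 8.28, 33.1, 20 and 34.9 CPM in WT and 9.37, 12.3, 17.8 and 33.8 CPM in FXS across batches 5 to 8. It was at 5.75, 17.7, 15.9 and 19 CPM in S6K1 and 4.62, 21.1, 11.1 and 17.9 CPM in DKO. The FXS library of batch 6 was again below both libraries of its batch that lacked S6K1, and the other 3 batches separated the groups. The difference of -0.58 ± 0.172, 1.49-fold lower, had an adjusted p of 0.185 by edgeR. Its near copy Ly6c2 had 9 counts in all mRNA libraries. Itm2a, an integral membrane protein with the highest CPM of the members, ranged from 14.4 to 49.2 CPM with S6K1 and from 7.17 to 33.8 CPM without it, with a difference of -0.38 ± 0.124 (adjusted p = 0.207).

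How many members passed turned on single libraries, and the pooled count was highest without the FXS library of batch 6. Without it, 4 members were called in the pooled comparison by edgeR: Slco1a4 (adjusted p = 0.0191), Ly6c1 (0.000303), Pecam1 (0.00373) and Tek (0.0397). In S6K1 against FXS its removal brought Ly6c1 (0.0437), Pecam1 (0.0346) and Tek (0.0437) past the threshold, and in DKO against FXS it brought Ly6c1 (0.0381). Without S6K1 replicate 4, Tek was called in S6K1 against FXS (adjusted p = 0.0317 by edgeR), in a fit that called 497 of all genes. Without DKO replicate 2, also of batch 6, Ly6c1 joined Slco1a4 in DKO against WT (adjusted p = 0.0426 by edgeR). The genes called over all genes moved too when 1 library was left out. They numbered 11 to 112 in the pooled comparison and 15 to 497 in S6K1 against FXS, both highest without S6K1 replicate 4. The range was 0 to 5 in DKO against FXS and 71 to 1093 in DKO against WT. The counts over all genes without the FXS library of batch 6 or without DKO replicate 2 lie within these ranges. They are not given singly, so the member calls of those fits have no share of all genes beside them. The FXS library of batch 6 had the lowest summed member mRNA of its batch, 106 CPM against 153 CPM in WT, 117 CPM in S6K1 and 135 CPM in DKO, and all 10 members were below the WT library of that batch.

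**Figure D2:**
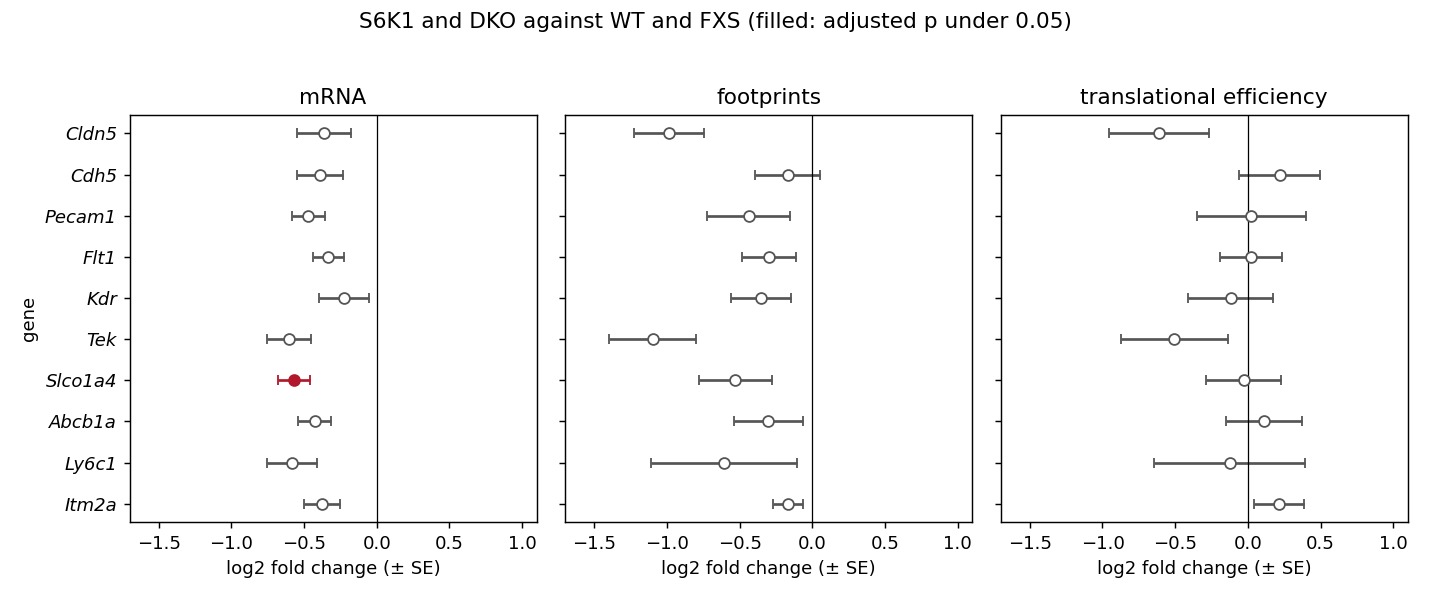
Fitted log2 fold change of each member, S6K1 and DKO against WT and FXS, for mRNA, footprints and translational efficiency. Bars are ± the approximate SE and the filled point marks an adjusted p under 0.05. All mRNA and footprint points lie left of 0, the Slco1a4 mRNA point is the filled one, and the efficiency points lie on both sides of 0.

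Taken genotype by genotype, the mRNA difference appeared against both WT and FXS and for both S6K1 and DKO; these comparisons share libraries and are set side by side as values. S6K1 against WT had a median of -0.44 over the members (10 of 10 lower), with 0 called by edgeR and 6 at an unadjusted p under 0.05 (0.0211% of all genes called by edgeR). DESeq2 called 1 member there, Slco1a4, and 5 genes over all genes. DKO against WT had a median of -0.38 (10 of 10 lower) with 1 called, Slco1a4 at -0.63 ± 0.151 and an adjusted p of 0.0226 (5.23% of all genes called). That call was lost without batch 5 (adjusted p = 0.11) and when WT replicate 1, 2 or 3 or DKO replicate 1, 3 or 4 was left out, with adjusted p-values from 0.0583 to 0.112, and without DKO replicate 4 the members' median was -0.25 with 9 of 10 lower. S6K1 against FXS had a median of -0.47 with 0 called by edgeR and 6 at an unadjusted p under 0.05 (0.324% of all genes called by edgeR). DESeq2 called 1 member there, Slco1a4, and 198 genes over all genes, against 46 by edgeR. DKO against FXS had a median of -0.41 with 0 called by either tool and 5 at an unadjusted p under 0.05 (0.0281% of all genes called by edgeR). At that unadjusted level, 6 members were lower in DKO against WT. The share of all genes lower at that level was 3.63% for S6K1 and 10.2% for DKO against WT. Against FXS it was 6.65% for S6K1 and 4.59% for DKO. Without batch 5 the members lower were 9 of 10 for S6K1 and for DKO against WT (medians -0.39 and -0.45) and 10 of 10 for both against FXS (medians -0.42 and -0.37), with 0 called by edgeR and 6, 6, 4 and 4 at an unadjusted p under 0.05.

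The members had no common direction in FXS without loss of S6K1. In FXS against WT, 4 of 10 were lower and the median was 0.02, from -0.33 for Ly6c1 to 0.24 for Cdh5, with 0 called by edgeR or DESeq2 and 0 at an unadjusted p under 0.05 (0.155% of all genes called by edgeR). Without batch 5, 6 of 10 were lower and the median was -0.04. In DKO against S6K1, 3 of 10 were lower and the median was 0.05, with 0 called by either tool and 0 at an unadjusted p under 0.05 (0.387%), and without batch 5 it was 5 of 10 with a median of 0.01. Whether losing S6K1 acted differently with and without Fmr1 was tested by the interaction of the genotypes: 0 members passed by either tool, 0 had an unadjusted p under 0.05, and the largest term was 0.35 ± 0.215 for Slco1a4 (0% of all genes called by edgeR, with 497 genes at an unadjusted p under 0.05, and 0 genes called by DESeq2).

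The members also differed by mRNA batch. The 4 batch 5 libraries lay a median of 1.53 log2 units below the libraries of the other batches (member range -1.94 to -1.04), and their summed member mRNA was 37.6 to 67.6 CPM against 106 to 241 CPM elsewhere. For 9 of the 10 members, all but Slco1a4, every batch 5 library was below every other library, which held for 13.7% of all genes. Batch 8 was the highest, with a median of 0.95 log2 units above the rest. Markers of other cells moved with batch 5 too: the median was -1.57 for 10 microglial genes, -1.10 for 12 pericyte genes, -1.07 for 12 genes of meninges and perivascular fibroblasts, -0.57 for astrocyte and -0.53 for oligodendrocyte genes, against -0.13 for neuronal genes, 0.25 for smooth muscle and 0.73 for choroid plexus. Their part in the members' levels was not tested.

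Since each mRNA batch held all 4 genotypes, the S6K1 comparison can be read within each. The median member difference was -0.74 in batch 5, -0.09 in batch 6, -0.50 in batch 7 and -0.73 in batch 8. All 10 members were lower in batches 5, 7 and 8, and 6 of 10 in batch 6. In each of batches 5, 7 and 8, both libraries lacking S6K1 were below both others for 8 members, where the share over all genes was 20.2%, 15.8% and 18.4%. In batch 6 this held for 1 member, Flt1, against 15.6% of all genes. Against the WT library of batch 6, S6K1 had a median of -0.34 and DKO -0.14, and against its FXS library they had medians of 0.11 and 0.20. Slco1a4 was lower in every batch, by -0.73, -0.26, -0.49 and -0.77 in turn. Cldn5 and Kdr were higher in batch 6, by 0.45 and 0.53, and lower in the other 3.

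**Figure D3:**
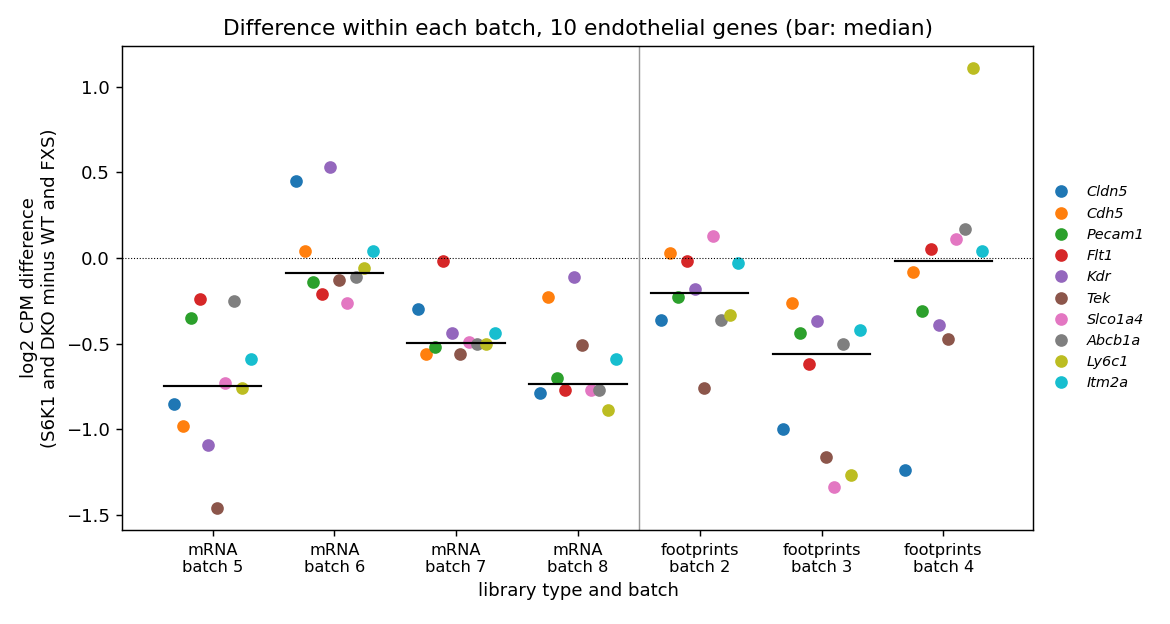
Difference in log2 CPM between the libraries lacking S6K1 (S6K1 and DKO) and those with it (WT and FXS) within each batch that holds both, a point for each member and a bar at the median. mRNA batches 5, 7 and 8 have medians of -0.74, -0.50 and -0.73 with all members below 0, batch 6 has -0.09, and the footprint batches have -0.20, -0.56 and -0.02.

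Footprints of the members were sparse. Over the 15 libraries Itm2a had 262 to 583 counts, 5 members had between 24 and 149, and Cldn5, Pecam1, Tek and Ly6c1 had between 2 and 39. In the pooled comparison all 10 members had a lower fitted footprint level without S6K1, with a median of -0.39 against -0.01 for all genes. None was called by edgeR (0.0143% of the 13953 genes tested were called). DESeq2 called none either, but it gave no adjusted p for Tek and Ly6c1. By edgeR, 2 had an unadjusted p under 0.05, Cldn5 and Tek (5.96% of all genes were lower at that level). The direction rested on the batch term: without it, 3 of 10 members (Cldn5, Tek and Ly6c1) were lower. The mean of the batch 1 libraries, both lacking S6K1, was above the mean of the other libraries for 8 members, though not above each batch for all of them. With batch 1 left out and the term kept, 10 of 10 were lower with a median of -0.40. Batch 1 held no WT or FXS library, so with the term kept its removal could change little and is no check of the direction. Without FXS replicate 3 it was 9 of 10 with a median of -0.22, and without DKO replicate 2 it was 10 of 10 with a median of -0.25.

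**Figure D4:**
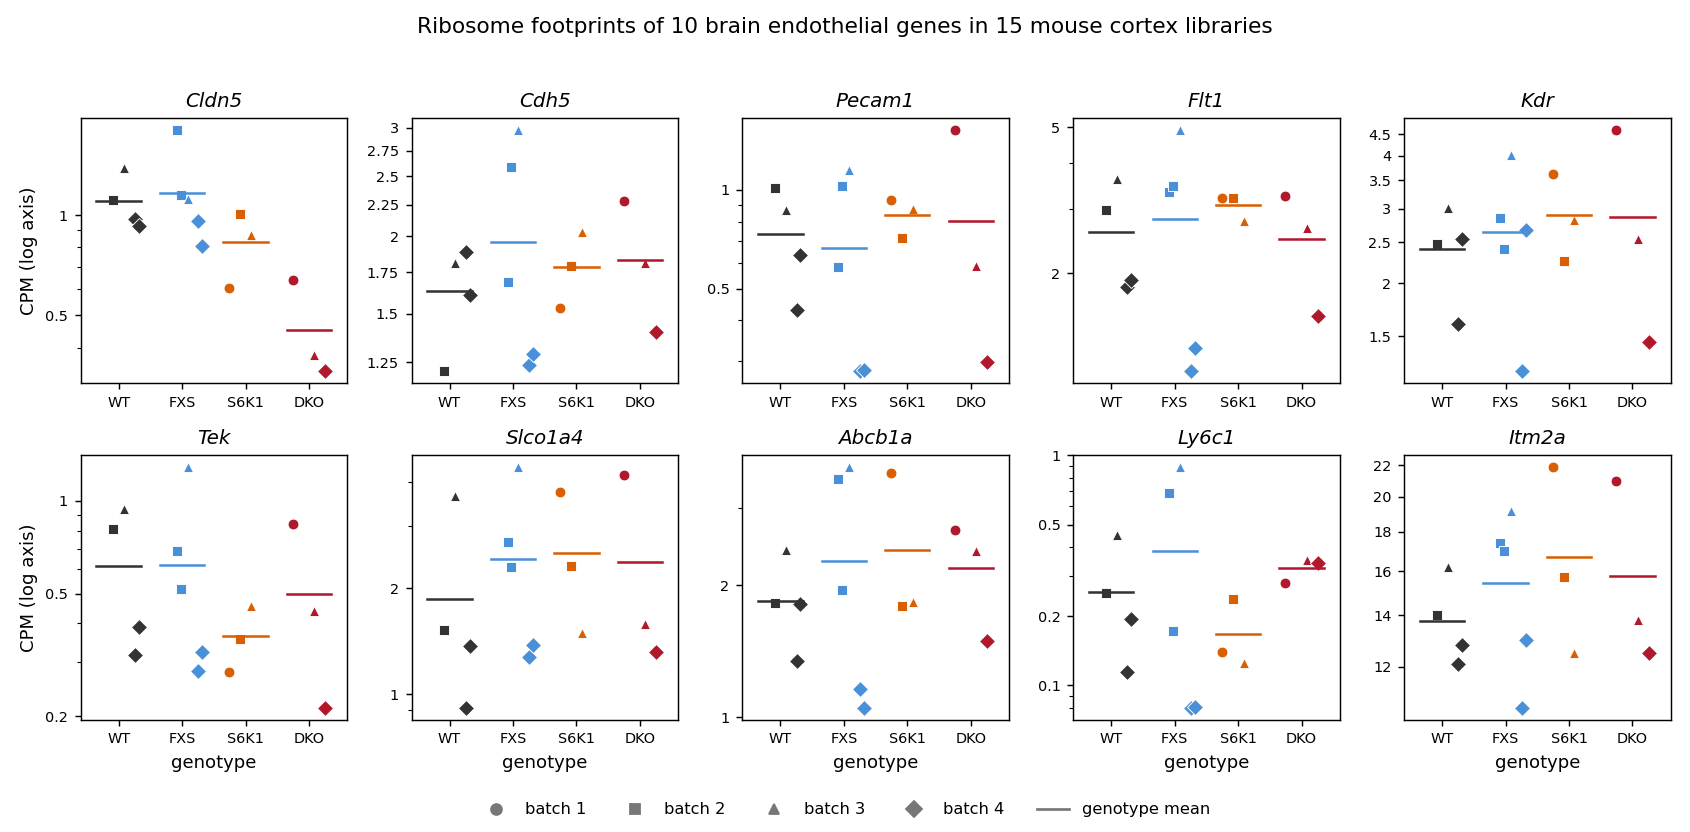
Footprints of the 10 members in the 15 libraries, in CPM on a log axis, by genotype; marker shapes give the batch and bars the genotype mean. The batch 1 libraries (circles) are S6K1 and DKO libraries and are high in most panels, and the batch 4 libraries (diamonds) are low.

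Cldn5 footprints were the clearest of these. They were 1.11, 1.39, 0.973 and 0.928 CPM in WT, and 1.80, 1.15, 1.12, 0.959 and 0.809 CPM in FXS. They were 0.604, 1.01 and 0.872 CPM in S6K1 and 0.640, 0.380 and 0.340 CPM in DKO, where the counts were 16, 13 and 8. These DKO values were below the WT and FXS values, and the S6K1 libraries overlapped with both. The DKO library at 0.640 CPM came from batch 1, which held no WT or FXS library. How many of all genes separate DKO in this way was not counted. The pooled difference was -0.98 ± 0.241 (9 libraries against 6, adjusted p = 0.168 by edgeR). The S6K1 and DKO libraries of batch 1 had no WT or FXS library beside them and inform it little. The difference of DKO against WT was -1.34 ± 0.329 with an adjusted p of 0.0955 by edgeR. Within batches 2, 3 and 4 the pooled difference was -0.36, -1 and -1.24.

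Tek footprints were 0.808, 0.941, 0.315 and 0.391 CPM in WT, and 0.688, 0.517, 1.29, 0.280 and 0.324 CPM in FXS. They were 0.279, 0.357 and 0.457 CPM in S6K1 and 0.841, 0.439 and 0.213 CPM in DKO. The ranges overlapped, and the lowest library had 5 counts. The fitted difference was -1.10 ± 0.299 with an adjusted p of 0.207 by edgeR, and it was -0.53 without the batch term. Ly6c1, the member with the fewest footprints, had 2 to 27 counts in a library, and its difference of -0.61 ± 0.502 did not pass the test (adjusted p = 0.675 by edgeR). Slco1a4, called in mRNA, had a footprint difference of -0.53 ± 0.252 (adjusted p = 0.448), with 0.13, -1.34 and 0.11 within batches 2, 3 and 4.

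The pairs of genotypes gave no footprint call among the members by edgeR or DESeq2. At an unadjusted p under 0.05 by edgeR there was 1 in S6K1 against WT (Tek), 1 in DKO against WT (Cldn5), 3 in S6K1 against FXS (Tek, Slco1a4 and Ly6c1), 1 in DKO against FXS (Cldn5) and 0 in the other comparisons. Of all genes, 4.52%, 9.56%, 4.78% and 3.43% were lower at that level, in turn for the pairs named. The 1 member in DKO against WT was near the share of all genes. Medians were -0.36 for S6K1 against WT (0.00717% of all genes called), -0.31 for DKO against WT (0.366%), -0.42 for S6K1 against FXS (0.0358%) and -0.30 for DKO against FXS (0.0143%). They were 0.11 for FXS against WT (0.165%), 0.06 for DKO against S6K1 (0.00717%) and -0.07 for the interaction (0%, with 428 genes at an unadjusted p under 0.05, and 5 genes called by DESeq2). Without the batch term the medians turned to 0.23 for S6K1 against WT (3 of 10 lower), 0.18 for DKO against WT (3 of 10) and 0.07 for S6K1 against FXS (4 of 10), and DKO against FXS went to -0.07 (7 of 10). Single libraries moved them too: without FXS replicate 3 the medians were -0.19 for S6K1 and -0.08 for DKO against FXS, without DKO replicate 2 they were -0.16 against WT and -0.14 against FXS, without DKO replicate 3 they were -0.53 and -0.52, without S6K1 replicate 2 S6K1 against WT was -0.59, and without WT replicate 4 DKO against WT was -0.20. S6K1 against WT was -0.54 without WT replicate 1. Footprint batch 4 was low for the members, a median of 0.80 log2 units below the mean of the other libraries with 10 of 10 lower. For Flt1 and Slco1a4 every batch 4 library was below every other (4.29% of all genes).

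Translational efficiency is the change in footprints beyond the change in mRNA. In the pooled comparison with the batch term 5 of 10 were lower and the median was 0, from -0.61 ± 0.344 for Cldn5 to 0.22 ± 0.278 for Cdh5. No member was called by edgeR or DESeq2 and 0 had an unadjusted p under 0.05 (0.0586% of the 13654 genes called by edgeR, and 5.8% lower at an unadjusted p under 0.05). Cldn5 in DKO against WT was the 1 value under 0.05 unadjusted in the other comparisons, -1.20 ± 0.471 with an adjusted p of 0.119 by edgeR. In DKO against WT, 14.6% of all genes were lower at that unadjusted level. No member was called by edgeR in S6K1 against WT (0.0293% of all genes called), DKO against WT (4.85%), S6K1 against FXS (0.022%), DKO against FXS (0.0146%), FXS against WT (0.0952%) or DKO against S6K1 (0.00732%), and DESeq2 called none either. Without the batch term 1 of 10 was lower and the median was 0.40, with 0 called by edgeR and 0 lower at an unadjusted p under 0.05. Without mRNA batch 5 it was 5 of 10 with a median of -0.01, and Kdr went from -0.12 to -0.31. The error of a single member, 0.174 to 0.52 log2 units, sets what could have been seen.

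The members had few footprints for their mRNA in every genotype. In WT the ratio of mean footprint CPM to mean mRNA CPM had a median of 0.113 over the members and 0.785 over the 13654 genes tested, and all 10 members were below the latter. Ly6c1 was the lowest at 0.0105, the 0.0659th percentile of all genes, followed by Pecam1 (0.0545), Tek (0.0784), Cldn5 (0.0826) and Slco1a4 (0.0840), all under the 2nd percentile. Abcb1a (0.142) and Flt1 (0.238) came next, and Itm2a (0.406), Kdr (0.442) and Cdh5 (0.445) lay between the 21.9th and 25.3rd percentiles. In FXS, S6K1 and DKO the median was 0.148, 0.218 and 0.203. Low footprints for the mRNA were not particular to the members. In WT and FXS libraries, 10 microglial genes summed to a median of 750 CPM in mRNA and 143 CPM in footprints. The sums were 1130 and 1200 CPM for 10 astrocyte genes and 8190 and 11900 CPM for 10 neuronal genes. The libraries of the 2 assays come from different batches, and batch moves the members in both, so this ratio holds batch as well as translation, and the order of near neighbours carries no test.

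**Figure D5:**
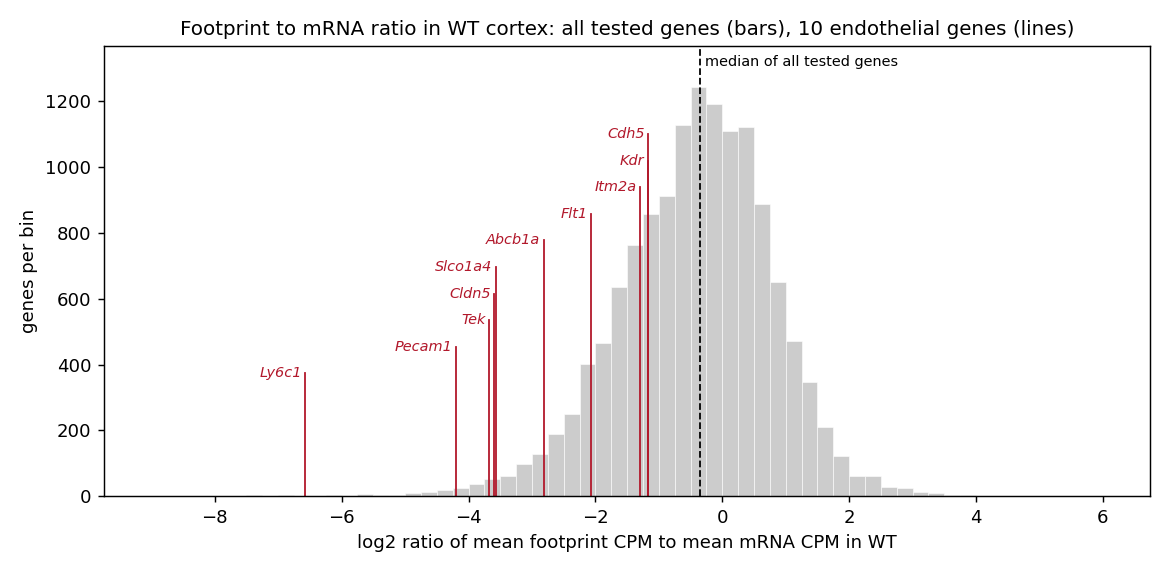
Ratio of mean footprint CPM to mean mRNA CPM in WT on a log2 axis, with bars for the 13654 genes tested and lines for the 10 members (line heights only separate the names). All members lie left of the median of 0.785, and Ly6c1 lies at 0.0105, far from the other 9.

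Other genes of the brain endothelium were read from lists, by their count and median in the pooled mRNA comparison, beside a median of 0.01 for all genes. Of all genes, 47.9% were lower there and 6.5% were lower at an unadjusted p under 0.05 by edgeR. Esam is in both the receptor and the junction list, so those lists overlap. Of 25 further endothelial receptors and surface proteins tested, 23 were lower, 13 of them at an unadjusted p under 0.05, with a median of -0.26. In that list 1 was called, Ramp2, a co-receptor for adrenomedullin, at -0.41 ± 0.0771 with an adjusted p of 0.0222 by edgeR. Of 18 barrier transporters and carriers 16 were lower (6 at that unadjusted level, median -0.12), of 11 junction genes 10 (3, median -0.14) and of 15 endothelial transcription factors 13 (3 lower and 1 higher, median -0.15). The 16 vascular ligands and co-receptors had 12 lower (2, median -0.06), and the 14 Wnt and norrin genes 7 (2, median 0). Outside receptors and surface proteins, 0 genes of these lists were called by edgeR. Without batch 5 the median was -0.21 for receptors and surface proteins (22 of 25 lower, 7 at that level), -0.13 for transporters (14 of 18), -0.17 for junction genes (10 of 11), -0.07 for transcription factors (12 of 15), 0.03 for ligands (7 of 16) and 0.04 for Wnt and norrin genes (5 of 14). Ramp2 was still called then, at -0.47 ± 0.0864 (adjusted p = 0.0294 by edgeR).

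The same lists were read in footprints, beside a median of -0.01 for all genes. Of all genes, 53.8% were lower there and 5.96% were lower at an unadjusted p under 0.05 by edgeR. The lists were read with the batch term only, and the direction of the members' footprints rested on that term. Receptors and surface proteins had 20 of 21 lower (10 at an unadjusted p under 0.05 lower and 1 higher, median -0.32), transporters 15 of 18 (4, median -0.17) and transcription factors 12 of 16 (3 lower and 1 higher, median -0.11). Ligands had 10 of 15 lower (0 at that level, median -0.07), Wnt and norrin genes 7 of 14 (2, median -0.03) and junction genes 5 of 11 (1 lower and 1 higher, median 0.01). No gene of these 6 lists was called in footprints by edgeR.

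Markers of other cells were read in the same mRNA comparison, where 47.9% of all genes were lower and 6.5% were lower at an unadjusted p under 0.05 by edgeR. All 7 smooth muscle genes tested had lower mRNA (5 at an unadjusted p under 0.05, median -0.45), and their summed level was 27.3 to 49.7 CPM with S6K1 and 24.7 to 31.1 CPM without it. Of 12 genes of meninges and perivascular fibroblasts 11 were lower (7 at that level, median -0.35), summing to 115 to 259 CPM against 63.9 to 267 CPM, and 1 was called, Slc6a20a, a proline transporter, at -0.60 ± 0.127 (adjusted p = 0.0462 by edgeR), a call lost without batch 5 (-0.50 ± 0.133, adjusted p = 0.175). All 7 choroid plexus genes were lower (1 at that level, median -0.39; 8.11 to 595 CPM against 5.95 to 241 CPM), and 4 of 5 blood cell genes (1, median -0.32; 387 to 1780 CPM against 669 to 2580 CPM). Pericyte genes were lower in 7 of 12 (2, median -0.05; 90.5 to 237 CPM against 57.8 to 258 CPM). Microglial genes were lower in 8 of 10 (2, median -0.06; 259 to 871 CPM against 208 to 796 CPM) and astrocyte genes in 8 of 10 (2, median -0.09; 797 to 1430 CPM against 614 to 1260 CPM). By contrast, oligodendrocyte genes were lower in 1 of 10 (3 higher at that level, median 0.11; 1830 to 3120 CPM against 1870 to 3380 CPM) and neuronal genes in 2 of 10 (1 higher, median 0.06; 6850 to 9220 CPM against 7280 to 9240 CPM). In footprints 10 of 10 oligodendrocyte genes were lower (8 at an unadjusted p under 0.05, median -0.29), 9 of 12 pericyte genes (2, median -0.23) and 7 of 8 smooth muscle genes (1, median -0.16), with 0 called by edgeR. Of all genes in footprints 53.8% were lower, and 5.96% were lower at that level, with the batch term kept.  Without mRNA batch 5 the medians were -0.28 for smooth muscle (7 of 7 lower), -0.32 for meninges and perivascular fibroblasts (11 of 12), -0.41 for choroid plexus (7 of 7), -0.16 for blood cells (3 of 4), 0.05 for pericytes (6 of 12), -0.04 for microglia (7 of 10), -0.01 for astrocytes (6 of 10), 0.15 for oligodendrocytes (0 of 10) and 0.05 for neurons (3 of 10). Their part in the members' difference was not tested.

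After each batch mean was subtracted, the mRNA of each member followed the mean of the other 9 over the 16 libraries, with Pearson's r from 0.55 for Kdr to 0.82 for Tek, Slco1a4 and Itm2a. The genes outside the members with the most similar pattern were Gpr116 (0.91), an adhesion receptor present on endothelium, Reck (0.90), a Wnt7 co-receptor of brain vessels, Slc6a20a (0.90), Crip1 (0.89) and Acta2 (0.89), smooth muscle actin. In footprints the members' own r with the other 9 ran from 0.43 for Cldn5 to 0.81 for Flt1 and Itm2a over 15 libraries, and the most similar other genes were Slc35e3 (0.90), Fut9 (0.90), B3galt1 (0.89), Hmmr (0.89) and Slc38a11 (0.89). These values share libraries, depth and genotype and carry no test.

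For DKO against WT in mRNA, the authors' deposited table listed all 10 members with a negative log2 fold change. Slco1a4 was at -0.63 with an adjusted p of 0.0032, and Ly6c1 at -0.82 with an adjusted p of 0.0299, in the authors' deposited table. Pecam1 was at -0.46 there (adjusted p = 0.0626 in the authors' deposited table), and the other 7 had larger or missing adjusted p-values. The authors' footprint and efficiency comparisons listed 6 of the 10 members, without Cldn5, Pecam1, Tek and Ly6c1. For DKO against WT, the authors' adjusted p-values of those 6 ran from 0.553 to 0.98 in footprints and from 0.762 to 0.955 in efficiency. For FXS against WT many of the authors' adjusted p-values were missing, and none given for a member was under 0.05.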

How the data were processed

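The authors deposited counts per gene, named as coding-sequence counts and held as whole numbers, for 16 mRNA and 15 footprint libraries. Per the submitters' processing notes, cutadapt 2.0, Bowtie2, TopHat2, RSEM and mm10 were used, with roles not given; strand use and treatment of reads shared by near copies are not given in the sources used here. The authors' deposited tables of comparisons give log2 fold changes and p-values, which were used for DKO and FXS against WT.

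Counts were tested here with edgeR 4.0.16 (R 4.3.3): filterByExpr on genotype (minimum count 10), TMM, quasi-likelihood F-test with robust fits of genotype plus labelled batch over all libraries of an assay, Benjamini-Hochberg adjustment over all genes tested (14215 for mRNA, 13953 for footprints), called under 0.05. Translational efficiency was the footprint contrast minus the mRNA contrast in 1 model of 31 libraries (13654 genes). Each SE is approximate, the absolute log2 fold change divided by the square root of the F statistic. Levels are CPM on TMM-scaled totals; log2 CPM used a prior count of 2. CPM is not scaled by length, so levels of different genes are not compared per molecule. The scripts were tested on simulated data.

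The labels' batch pairs libraries across genotypes and is a block in the fits. Deviations from genotype means correlated more within batches (median r 0.22 over 24 mRNA pairs and 0.25 over 20 footprint pairs) than between (-0.12 and -0.10). No libraries agreed within sampling noise. The alternatives were other size factors, no filter, DESeq2 1.42.0, no batch term, the compared genotypes alone, batches left out and each library left out. The members, the 15 other lists and the tests were chosen with earlier results of these data known. The text names all members, and other list genes where called in the pooled comparison; likeness names the 5 highest Pearson correlations outside the members. An oligodendrocyte gene, Cnp, was also called in the pooled efficiency comparison (-0.45, adjusted p = 0.0285 by edgeR).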

Additional observations from a re-analysis of the deposited data

Results flagged for a closer look

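In 9 of the 60 sets of 4 or 5 libraries examined (a member's log2 CPM in a genotype), the lowest library lay far from the others, by a gap to its neighbour over the whole range above Dixon's 95% critical value. That value flags about 1 in 20 unrelated sets drawn without batches. These sets share libraries and batches and the members move together, so that rate does not apply here. In each of the 9 sets the flagged library was the mRNA library of batch 5, replicate 1 of its genotype. On the log2 scale, in DKO the gap was 0.856 of the range for Flt1 (3.46 CPM), 0.857 for Tek (2.43 CPM), 0.884 for Kdr (1.03 CPM), 0.936 for Slco1a4 (7.84 CPM) and 0.886 for Abcb1a (4.44 CPM). In S6K1 it was 0.945 for Pecam1 (4.06 CPM), 0.849 for Ly6c1 (5.75 CPM) and 0.912 for Itm2a (7.17 CPM), and in WT it was 0.831 for Pecam1 (4.38 CPM). On linear CPM 4 of the 60 sets passed, all among these 9: Pecam1 (0.915) and Itm2a (0.84) in S6K1, and Slco1a4 (0.912) and Abcb1a (0.834) in DKO.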

How the results depend on the processing

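With the batch as a block, as reported, 1 member was called in mRNA in the pooled comparison and 1 in DKO against WT. Without the block both counts were 0, as they were without batch 5. DESeq2 called 3 members in the pooled comparison (Slco1a4, Pecam1 and Tek), 2 for DKO against WT (Slco1a4 and Ly6c1), and Slco1a4 alone for S6K1 against WT (1 member) and for S6K1 against FXS (1 member), where edgeR called 0. A fit of DKO and WT alone called 2. Leaving out 1 library gave 0 to 4 members called in the pooled comparison, 0 to 2 in DKO against WT, 0 to 3 in S6K1 against FXS and 0 to 1 in DKO against FXS. Slco1a4 was still called in 10 of 22 alternatives of the pooled comparison (adjusted p from 0.000312 to 0.88) and 7 of 15 of DKO against WT (0.00358 to 0.587), with a negative difference in each.

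All 10 mRNA differences of the pooled comparison stayed negative under each alternative fit. Footprint differences turned positive without the block for Flt1 (0.037), Pecam1 (0.24), Kdr (0.197), Cdh5 (0.014), Slco1a4 (0.197), Abcb1a (0.171) and Itm2a (0.154). Efficiency differences changed sign without the block for Tek (-0.507 with it, 0.013 without), Kdr (0.386), Slco1a4 (0.778) and Ly6c1 (0.138), and with DESeq2 for Slco1a4 (0.047). With 1 library left out they ran from -0.111 to 0.232 for Flt1, -0.162 to 0.283 for Pecam1, -0.246 to 0.007 for Kdr, -0.372 to 0.245 for Slco1a4, -0.605 to 0.494 for Ly6c1 and -0.062 to 0.283 for Abcb1a. Batch 1 of the footprints holds no WT or FXS library; the cause of these changes was not tested.

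Over all genes, the 34 called in the pooled mRNA comparison became 152 with DESeq2, 4 without the block, 10 without batch 5 and 11 to 112 with 1 library left out. The 743 of DKO against WT became 1065, 2, 480 and 71 to 1093. Pooled footprints had 2 called and 108 with DESeq2, and pooled efficiency 8 and 59. DESeq2 also called more mRNA genes for S6K1 against WT (5 against 3), S6K1 against FXS (198 against 46), DKO against FXS (27 against 4), FXS against WT (201 against 22) and DKO against S6K1 (353 against 55). Footprint counts were low for some members, with as few as 2 for Ly6c1 in a library.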
